A study of Arabidopsis thaliana with 6 samples.

Results

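Proteasome genes were taken as the genes whose description in the deposited table contains the word proteasome, in any case, and 45 of the 27655 genes met this. They comprised 28 subunits of the 26S proteasome (18 of the 20S core and 10 of the 19S regulatory particle), 4 activator, assembly or inhibitor genes, 4 subunits of the COP9 signalosome and 9 other genes. Many subunits carry a description without that word, so a list of 56 genes for 26S subunits (24 of the core, 32 of the regulatory particle) was set beside them, and 28 of the 56 were found only through the list. The core genes fell on 14 subunit positions, 10 of which had a pair of paralogous genes, and the regulatory genes on 19 positions, 13 of which had a pair.

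The study sequenced RNA of Arabidopsis thaliana sperm cells (SC) and of vegetative nuclei (VN), with 3 libraries of each. Both came from mature pollen of a single transgenic marker line, labelled WT, which carries MGH3p::MGH3-GFP and ACT11p::H2B-mRFP, so that the SC group was sorted as GFP-positive cells and the VN group as RFP-positive nuclei. Plants were kept on soil with 8 h of light for 8 weeks and then with 16 h of light to flower, and flowers were collected and their pollen cracked before sorting. MGH3 is a histone gene active in sperm and ACT11 an actin gene active in the vegetative cell, and both reporters mark the population that was kept. SC are whole cells and VN are nuclei, so a difference between the cell types and a difference between cell and nuclear RNA cannot be told apart in any result given here. The 3 libraries of a group are described as biological replicates, and no label says whether they came from separate plants, so p values measure the spread between these libraries.

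The 26S proteasome degrades proteins that carry ubiquitin chains. Its 20S core is a barrel of stacked rings of alpha and beta subunits, and some of the beta subunits hold the proteolytic sites inside the barrel. The 19S regulatory particle binds the end of the barrel with a base, in which a ring of ATPases (RPT subunits) unfolds the substrate, and with a lid, in which the metalloprotease RPN11 removes ubiquitin. In Arabidopsis most positions are encoded by paralogous genes, and ubiquitin-dependent proteolysis is needed for the divisions that form the sperm cells in pollen.

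Values were transcripts per 1000000 (TPM), which are scaled by transcript length and can be compared between genes, but which are shares of each library. The 10 most abundant genes held 42.8 to 49.9% of the TPM in SC and 12.7 to 15.2% in VN. Log2 fold changes are differences of log2(TPM + 1), SC minus VN, from limma over the 10955 genes with at least 1 TPM in at least 2 of 6 libraries, and their median over all of these genes was -0.55. Genes past both thresholds, an adjusted p of 0.01 and a size of 1 in log2 fold change, were called higher in the respective cell type. The read depth of the single libraries is not given in the sources used here, and the number of genes above 0 TPM was 10202 in VN replicate 2 against 12418 to 15289 in the other libraries. Of 436 genes with the word ribosomal in their description, between 152 and 298 were also at 0, the most in VN replicate 2. A value of 0 is therefore given as listed at 0 and not as absence. All 6 sperm markers were above in SC and all 6 vegetative markers in VN, while summed green-tissue and tapetum markers reached at most 1.46 TPM in any library.

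The proteasome genes that differed between the populations went in both directions. Of the 45 genes, 17 (37.8%) reached a mean of 1 TPM in SC, against 26.9% of all genes in the table, and 17 (37.8%) did so in VN, against 33.7%. Listed at 0 in every library were 5 (11.1%), against 17.9% of all genes. In the 6 libraries the number listed at 0 was 16, 16 and 21 in SC and 15, 26 and 10 in VN. The filter on low values passed 24 of the 45 (53.3%, against 39.6% of all genes), of which 8 were higher in SC, 4 were higher in VN and 12 were not called. Over all tested genes, 29.2% were called higher in SC, 35.6% higher in VN and 64.9% in either direction. The groups of libraries did not overlap for 17 of the 24 genes, against 77.3% of all tested genes. The log2 fold changes of the 24 genes had a median of 0.79. It was -0.20 over the 14 tested 26S subunits and 1.94 over the 10 tested genes that are not 26S subunits. Of the 8 genes higher in SC, 3 were 26S subunits and 5 were not. Leaving out VN replicate 2 raised the number higher in VN to 7.

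Among the 56 genes of the subunit list, 34 were tested, with 6 higher in SC, 8 higher in VN, 20 not called and a median log2 fold change of -0.54, near that of all genes. Of all tested genes, 64.9% were called, 29.2% higher in SC and 35.6% higher in VN, so subunit genes were called less often than tested genes in general. A mean of at least 1 TPM was reached by 18 of the 56 in SC (32.1%, against 26.9% of all genes) and by 29 in VN (51.8%, against 33.7%). Within each subassembly the calls were few, and most counts moved with the setting. The core had 2 genes called in each direction among 13 tested. The ATPase ring had 5 calls among 9 tested, in VN only, and the lid had 2 among 7 tested, in SC only, near the share of all tested genes. Over the alternatives, the number higher in VN was 1 to 5 in the core and 3 to 8 in the ATPase ring. In the lid it was 0 to 1, with 1 to 3 higher in SC. These counts describe the lists, and no test of a list was made.

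**Figure D1:**
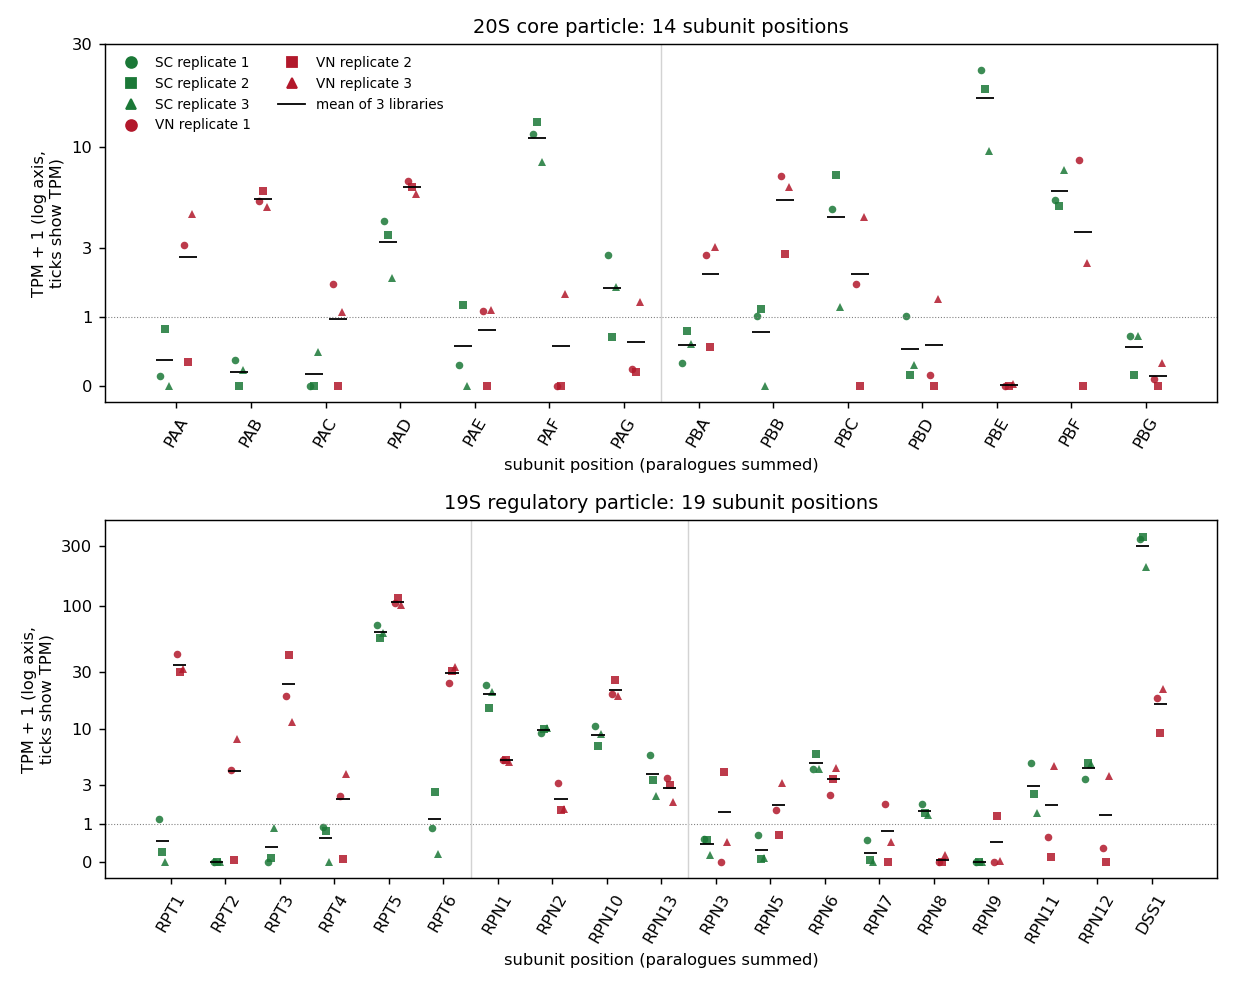
Summed TPM of the genes of each subunit position, on a log axis of TPM + 1, with a point for each of the 6 libraries (SC green, VN red) and a bar for the mean of 3 libraries. The positions RPT1, RPT3 and RPT6 of the ATPase ring show SC points far below VN points, whereas at RPT5 both groups lie above 50 TPM and DSS1 stands highest in SC.

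In the 20S core, the genes higher in SC were PAF1 and PBE2, and those higher in VN were PAB2 and PBB1. PAF1, an alpha ring subunit, had 11.6, 13.2 and 8.46 TPM in SC replicates 1, 2 and 3, was listed at 0 in VN replicates 1 and 2 and had 1.52 TPM in VN replicate 3. All SC values lay above all VN values, with a log2 fold change of 3.13 ± 0.44 (SE, limma adjusted p = 2.59e-04). Its paralogue PAF2 was listed at 0 in all 6 libraries. PAF2 overlaps AT1G47260 by 1652 bases on the opposite strand, and an effect of this on its value was not tested. PBE2, one gene of the beta position that carries the chymotrypsin-like site, had 23.0, 18.8 and 9.60 TPM in SC and was listed at 0 in every VN library (limma adjusted p = 2.07e-05). Its paralogue PBE1 was listed at 0 in every library but VN replicate 3, where it had 0.0253 TPM. At both positions, therefore, a single paralogue held nearly all of the signal, and it was found mainly in SC.

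PAB2, also of the alpha ring, went the other way. It had 0.299, 0 and 0.173 TPM in SC and 5.42, 6.07 and 5.05 TPM in VN, with no overlap (log2 fold change -2.50 ± 0.30, limma adjusted p = 1.01e-04). PAB1, its paralogue, was listed at 0 throughout. PBB1, a gene of the beta position with the trypsin-like site, had 0.967, 1.13 and 0 TPM in SC and 6.68, 2.78 and 5.38 TPM in VN. The groups did not overlap, with a log2 fold change of -1.82 ± 0.43 (limma adjusted p = 0.0051), and 9 of the 14 alternatives moved its adjusted p above 0.01. PBB2 reached 1.003 TPM at most.

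PAD2, an alpha subunit, was measured in every library of both groups, at 4.25, 3.55 and 1.97 TPM in SC and 3.60, 3.64 and 5.83 TPM in VN. The ranges overlapped and the log2 fold change was -0.35 (limma adjusted p = 0.380), with a positive sign under quantile normalization, median centring and removal of the most abundant genes. Its paralogue PAD1 was listed at 0 in all SC libraries and had 3.25, 2.75 and 0.0493 TPM in VN, which was not called (limma adjusted p = 0.0496). PBF1, a beta subunit with a single gene, had 5.48, 5.09 and 7.72 TPM in SC and 8.66, 0 and 2.46 TPM in VN, so that the VN libraries spread on both sides of the SC range. Overlap with a neighbouring gene was 34 bases for PAB2, 53 for PAD2 and 138 for PBF1, on the opposite strand, and 10 for PBB1, on the same strand. The study's list enters splicing events of a neighbour, AT5G66150, under PAD2, and its part in the PAD2 value was not tested.

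Not every core position reached a mean of 1 TPM in SC or in VN. Of the 14 positions, 6 reached a summed mean of at least 1 TPM in SC and 7 in VN. PAD, PBC and PBF did so in both, PAF, PAG and PBE in SC alone, PAA, PAB, PBA and PBB in VN alone, and PAC, PAE, PBD and PBG in neither. PAC, PAE and PBD nevertheless reached 1 TPM in single libraries, and PBG in none. In VN replicates 1 and 3, PAC had 1.80 and 1.10 TPM and PAE had 1.12 and 1.15 TPM, and both were listed at 0 in VN replicate 2. In single libraries the number of positions at 1 TPM or more was 8, 7 and 6 in SC and 9, 3 and 12 in VN, the lowest again in VN replicate 2. The summed TPM of all core genes was 55.5, 52.7 and 32.7 in SC and 39.1, 16.1 and 38.7 in VN, so that the ranges overlapped. Without VN replicate 2 the number of core genes higher in VN rose from 2 to 5, and it was 1 without any one of SC replicates 1, 2 and 3 or VN replicate 1.

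**Figure D2:**
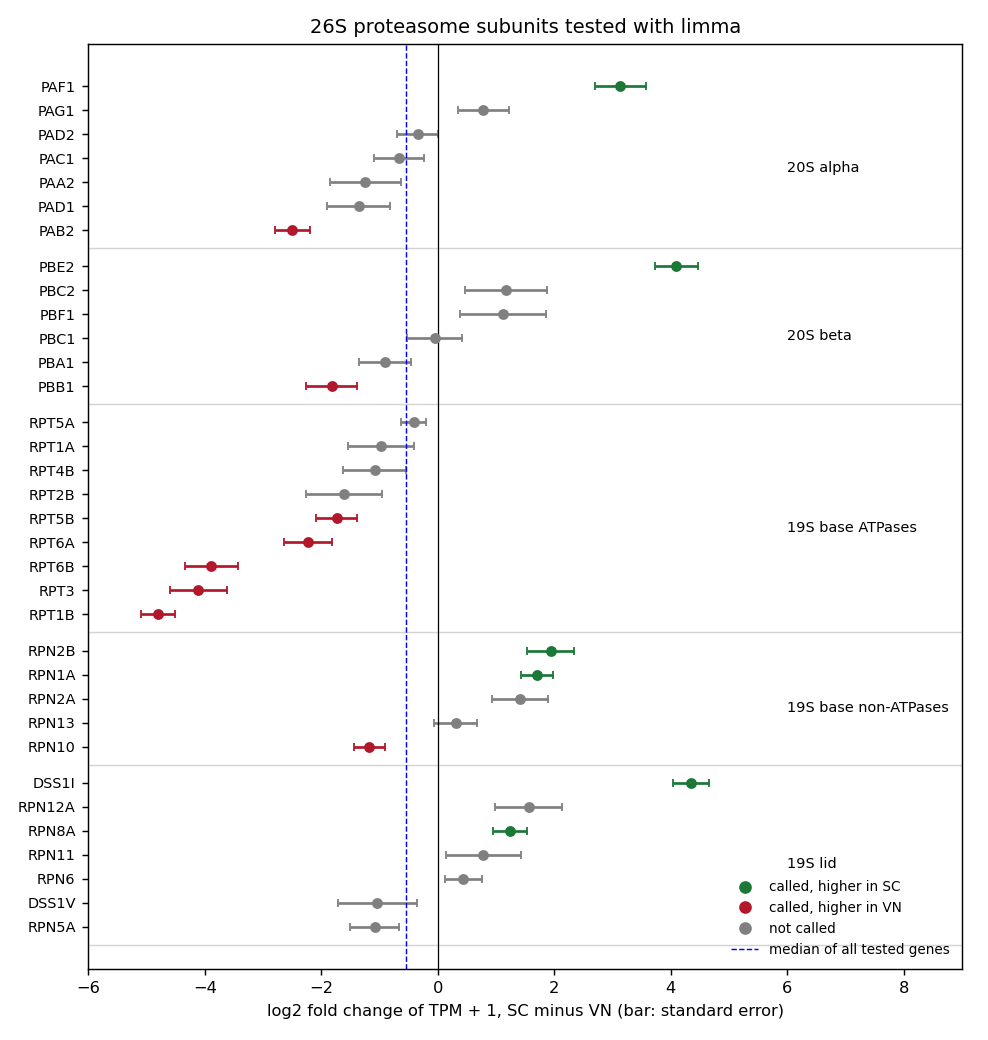
Log2 fold change (SC minus VN, log2 of TPM + 1) of each tested subunit gene by subassembly, with points for genes, bars for standard errors and a dashed line at the median of all tested genes. The 9 tested ATPase genes lie below 0, although RPT5A turns positive under quantile normalization, median centring and removal of the most abundant genes, with RPT1B lowest at -4.80, and DSS1I of the lid lies highest at 4.35.

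The ATPase ring of the 19S base was the subassembly with the most genes higher in VN. Of 11 RPT genes, 9 were tested and 5 were higher in VN (RPT1B, RPT3, RPT5B, RPT6A and RPT6B), with a median log2 fold change of -1.74. Of all tested genes, 35.6% were higher in VN. By limma 0 were higher in SC, also at an unadjusted p under 0.05 and under every alternative tried. The number higher in VN ranged from 3 without SC replicate 2 or SC replicate 3 to 8 without VN replicate 2.

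RPT1B (chr1:20073989-20079022) showed the largest difference among the subunits higher in VN. It had 0.405, 0.174 and 0 TPM in SC and 39.2, 29.7 and 28.1 TPM in VN (log2 fold change -4.80 ± 0.30, limma adjusted p = 2.33e-06). Its paralogue RPT1A stayed at or below 3.29 TPM in every library. RPT3 (chr5:23569052-23571854), the ATPase position with a single gene, had 0, 0.0820 and 0.855 TPM in SC and 19.01, 40.7 and 11.6 TPM in VN (log2 fold change -4.12 ± 0.49, limma adjusted p = 1.02e-04). Every VN library lay above every SC library for both genes. RPT3 overlaps its neighbour on the same strand by 20 bases.

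RPT6A and RPT6B lie side by side on chromosome 5 and share 94.4% of their aligned coding bases, the highest identity of any pair, with an identical stretch of up to 104 bases. RPT6B had 0.259, 2.53 and 0.124 TPM in SC and 21.8, 23.4 and 28.1 TPM in VN (mean 24.4 ± 3.29 in VN, SD, n = 3), and its log2 fold change was -3.89 ± 0.46 (limma adjusted p = 1.00e-04). RPT6A was lower, with 0.578, 0 and 0.0397 TPM in SC and 2.46, 7.23 and 4.84 TPM in VN (log2 fold change -2.22 ± 0.41, limma adjusted p = 0.00137). How reads were divided between such close copies is uncertain, whereas their sum does not depend on it. Without SC replicate 2 or SC replicate 3 the call of RPT6A was lost, at adjusted p of 0.0111 in each case.

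RPT5 was the exception within the ring, since its genes were well represented in SC. RPT5A had 59.0, 45.9 and 53.9 TPM in SC and 59.8, 72.0 and 80.6 TPM in VN, with no overlap but a difference that was not called (log2 fold change -0.41 ± 0.22, limma adjusted p = 0.112). Its sign turned under quantile normalization, median centring and removal of the most abundant genes. RPT5B had 12.4, 9.80 and 7.91 TPM in SC and 46.5, 43.4 and 21.7 TPM in VN, and was called higher in VN (log2 fold change -1.74 ± 0.35, limma adjusted p = 0.0021). That call was lost with median centring, with the most abundant genes removed and without SC replicate 2 or 3.

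RPT5B overlaps its neighbour AT1G09090 by 59 bases on the opposite strand. In the study's list of splicing events, events of the splicing factor gene SR30 are entered under RPT5B. SR30 has its own values in the table, 225.1 to 298.8 TPM in SC and 160 to 173 TPM in VN, and whether transcripts assembled across both genes entered the RPT5B value was not tested.

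The shares of the positions in ATPase TPM differed between the populations, mainly through the low level of the positions other than RPT5 in SC. These are shares of RNA, and the proteins of the ring were not measured. RPT5A and RPT5B together held 96.1, 94.0 and 98.4% of all ATPase TPM in SC (96.2 ± 2.20%, SD, n = 3) and 53.8, 53.3 and 53.7% in VN (53.6 ± 0.267%, SD, n = 3). The other 5 positions summed to 2.90, 3.56 and 1.02 TPM in SC and to 91.4, 101.1 and 88.0 TPM in VN. The summed ATPase level was 65.5 ± 7.84 TPM in SC and 201.5 ± 13.5 TPM in VN (SD, n = 3). All 6 positions reached a mean of 1 TPM in VN, and 2 did so in SC. With 3 libraries against 3 an exact permutation test cannot go below p = 0.1, and none was run on these shares.

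The non-ATPase subunits of the base, which hold ubiquitin receptors and the scaffolds of the particle, had 2 genes higher in SC and 1 higher in VN among 5 tested of 6. The shares of all tested genes were 29.2% and 35.6%. RPN1A, a scaffold that docks ubiquitin shuttle factors, had 23.4, 15.0 and 20.2 TPM in SC (19.5 ± 4.25, SD, n = 3) and 5.33, 5.32 and 4.99 TPM in VN (5.21 ± 0.193), and its log2 fold change was 1.70 ± 0.27 (limma adjusted p = 5.49e-04). It held at least 97.3% of its pair in every library. RPN2B, a gene of the other scaffold, had 4.73, 6.29 and 5.25 TPM in SC and 0.807, 1.57 and 0 TPM in VN (log2 fold change 1.94 ± 0.40, limma adjusted p = 0.00258). It was no longer called when the pseudocount was 0.1, when no filter was used or when any one of the SC replicates was left out.

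RPN2A, the paralogue of RPN2B, had 4.62, 3.80 and 5.08 TPM in SC and 2.38, 0 and 1.58 TPM in VN. The SC libraries were again above, but the difference was not called (log2 fold change 1.41 ± 0.48, limma adjusted p = 0.0260). RPN10, a ubiquitin receptor, went the other way with 10.6, 7.17 and 9.04 TPM in SC and 19.7, 25.5 and 19.01 TPM in VN (log2 fold change -1.18 ± 0.27, limma adjusted p = 0.00396). It lost its call in 7 of the alternatives, among them quantile normalization, median centring and the removal of the most abundant genes. RPN13, another ubiquitin receptor, had 2.29 to 5.91 TPM in SC and 1.93 to 3.55 TPM in VN, which overlapped.

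Of 15 lid genes 7 were tested, and 2 were higher in SC, where the share of all tested genes was 29.2%. By limma 0 were higher in VN, with 1 at an unadjusted p under 0.05 and 0 or 1 over the alternatives. DSS1I (chr1:24052362-24053923), encoding a small acidic lid subunit known in yeast as Sem1, was the most abundant subunit gene in SC, with 341.2, 354.0 and 204.8 TPM in SC and 17.1, 9.24 and 14.8 TPM in VN. The SC mean was 21.9 times the VN mean, and the log2 fold change was 4.35 ± 0.31 (limma adjusted p = 5.26e-06). DSS1I overlaps the tubulin gene TUA1 by 126 bases on the opposite strand, and TUA1 had 2255 to 3264 TPM in VN and 37.5 to 60.1 TPM in SC, the reverse of DSS1I. DSS1V, its paralogue, had at most 0.365 TPM in SC and 1.19, 0 and 6.77 TPM in VN. DSS1V overlaps genes on the opposite strand by up to 636 bases.

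RPN8A, the partner of the deubiquitinase RPN11 in the lid, had 1.44, 1.29 and 1.35 TPM in SC and was listed at 0 in every VN library (limma adjusted p = 0.0045). The call was lost without the filter and with a replicate block. Its paralogue RPN8B stayed at or below 0.391 TPM. RPN11 itself had 5.02, 2.42 and 1.45 TPM in SC and 0.583, 0.103 and 4.67 TPM in VN, which overlapped. RPN6, a lid scaffold with a single gene, had 4.38 to 6.07 TPM in SC and 2.35 to 4.50 TPM in VN, which overlapped too.

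The direction of the summed level depended on DSS1I. With DSS1 left out, the summed TPM of the regulatory particle was 140.1, 110.4 and 117.1 in SC and 236.1, 261.4 and 235.1 in VN. For all 56 genes it was 537.1, 517.3 and 354.8 in SC and 293.4, 286.8 and 295.3 in VN, whereas without DSS1 it was 195.6, 163.1 and 149.7 in SC and 275.1, 277.6 and 273.8 in VN. These sums are shares of libraries in which the 10 most abundant genes held 42.8 to 49.9% of the TPM in SC and 12.7 to 15.2% in VN. The lower sums in SC without DSS1 may therefore reflect that scaling, and sums rescaled without those genes were not computed. Over the 19S particle as a whole, 4 of 21 tested genes were higher in SC and 6 were higher in VN. The shares of all tested genes were 29.2% and 35.6%. Which direction held more of the 19S calls depended on normalization. With quantile normalization 6 were higher in SC and 5 in VN, with median centring 6 and 4, and with the 10 most abundant genes removed 5 and 4. The number higher in VN was 3 without SC replicate 2 or SC replicate 3 and 9 without VN replicate 2, and the number higher in SC was 2 when no filter was applied.

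**Figure D3:**
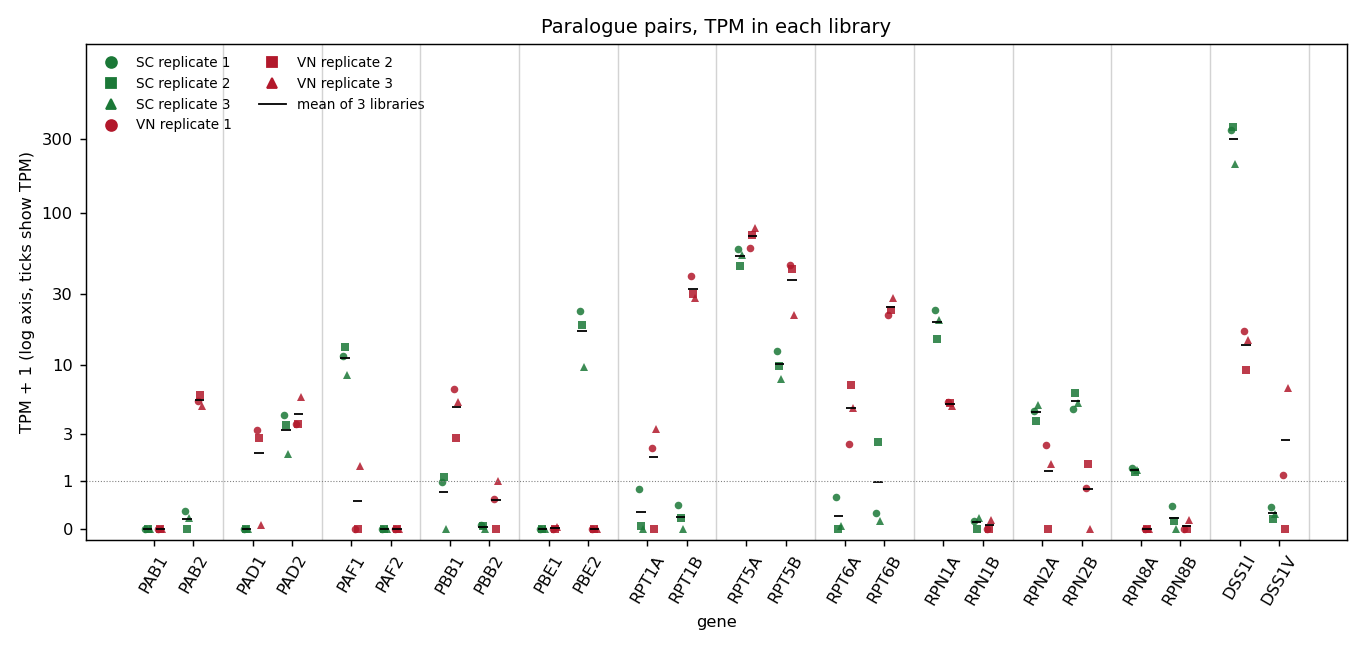
TPM of both genes of each pair that holds a called gene, and of PAD1 and PAD2, in each library (SC green, VN red), on a log axis of TPM + 1 with a bar for the mean of 3 libraries. PBE2 lies at 9.60 to 23.0 TPM in SC and at 0 in VN, whereas RPT1B lies at 28.1 to 39.2 TPM in VN and below 1 TPM in SC.

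The list held 23 paralogue pairs, whose aligned coding sequences were 80.3 to 94.4% identical, with longest identical stretches of 23 to 104 bases, all shorter than the 150 base reads. Only 5 pairs had a summed level of at least 1 TPM in every library (PAD, RPT5, RPN1, RPN2 and DSS1). RPT5A held 82.6, 82.4 and 87.2% of its pair in SC and 56.2, 62.4 and 78.8% in VN, so that the shares did not overlap. The RPN2 pair was split more evenly in SC, where RPN2A held 49.4, 37.7 and 49.2%, and its share in VN was 74.7, 0 and 100%. DSS1I held at least 99.9% of its pair in each SC library and 93.5, 100 and 68.6% in VN. In these pairs the same gene led in both populations, with the exception of RPN2.

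Upstream sequences of a few subunits are shown because a short element there is known in Arabidopsis as the binding core of NAC53 and NAC78, factors that raise proteasome genes when the proteasome is impaired. The sequences are 250 bases before the annotated gene start, from the RefSeq TAIR10.1 genome, 5′ to 3′ on the strand of the gene, with the letters TGGGC, or GCCCA where the match is on the other strand, in capitals. PBE2 (chr3:9652937-9653186, minus strand) and its paralogue PBE1 (chr1:4451940-4452189, plus strand) are given as a pair with signal in SC from a single gene, RPN1A (chr2:8858712-8858961, plus strand) as a base subunit higher in SC, and PBB1 (chr3:10152208-10152457, plus strand) and RPT6B (chr5:6756383-6756632, plus strand) as subunits higher in VN.
PBE2: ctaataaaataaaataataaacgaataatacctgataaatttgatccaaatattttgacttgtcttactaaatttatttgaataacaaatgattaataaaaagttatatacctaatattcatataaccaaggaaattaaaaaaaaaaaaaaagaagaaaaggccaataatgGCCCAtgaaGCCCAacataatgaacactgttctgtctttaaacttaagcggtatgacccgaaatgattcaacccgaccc
PBE1: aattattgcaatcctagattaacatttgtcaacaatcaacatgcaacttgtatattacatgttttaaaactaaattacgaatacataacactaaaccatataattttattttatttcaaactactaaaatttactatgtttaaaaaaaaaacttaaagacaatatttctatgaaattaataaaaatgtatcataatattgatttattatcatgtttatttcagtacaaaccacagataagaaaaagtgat
RPN1A: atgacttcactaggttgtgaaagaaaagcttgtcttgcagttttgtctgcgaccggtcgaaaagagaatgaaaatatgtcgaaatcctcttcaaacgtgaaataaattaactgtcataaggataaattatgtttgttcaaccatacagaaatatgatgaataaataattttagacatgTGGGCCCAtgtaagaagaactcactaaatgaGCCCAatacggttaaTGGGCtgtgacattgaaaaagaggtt
PBB1: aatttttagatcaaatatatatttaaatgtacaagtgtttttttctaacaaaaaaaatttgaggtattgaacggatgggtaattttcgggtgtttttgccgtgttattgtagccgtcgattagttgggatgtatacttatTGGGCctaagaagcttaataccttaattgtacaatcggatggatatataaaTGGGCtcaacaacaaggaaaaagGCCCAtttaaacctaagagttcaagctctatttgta
RPT6B: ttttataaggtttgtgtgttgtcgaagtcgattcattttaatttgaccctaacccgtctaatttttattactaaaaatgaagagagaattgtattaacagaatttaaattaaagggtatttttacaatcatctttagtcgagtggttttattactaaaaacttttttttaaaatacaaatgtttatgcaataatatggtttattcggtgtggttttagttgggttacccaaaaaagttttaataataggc

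PBE2 held 2 matches, RPN1A 4 and PBB1 3, and PBE1 and RPT6B held 0. A palindromic TGGGCCCA counts on both strands, as in RPN1A. Over the subunit list, 27 of 56 upstream windows (48.2%) held the letters at least once, against 22.7% of the 27444 windows of the same length over all genes. The share was 54.2% in the core and 43.8% in the regulatory particle. The letters were found in 4 of the 6 subunit genes higher in SC and in 3 of the 8 higher in VN, so that both directions held genes with and without a match. TGGGC also occurs in elements of other factors, and a match is a description of the letters only.

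The factors themselves were read from the same table. NAC78 had 37.0, 34.2 and 37.4 TPM in SC (36.2 ± 1.73, SD, n = 3) and 0.0961, 0.210 and 4.55 TPM in VN, and was higher in SC (log2 fold change 4.26 ± 0.59, limma adjusted p = 2.63e-04). It overlaps other genes on the opposite strand. NAC53 was listed at 0 in all 6 libraries.

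Of the 5 listed activator, assembly and inhibitor genes, 3 were tested and 2 were higher in SC, against 29.2% of all tested genes. The inhibitor-like gene AT1G48530 was outside this list, and it was tested but not called (limma adjusted p = 0.0109). PA200, an activator that caps the core in place of the 19S particle, had 5.90, 4.62 and 3.10 TPM in SC and 0.660, 0.0889 and 0.572 TPM in VN (log2 fold change 1.93 ± 0.35, limma adjusted p = 0.00118). PTRE1, described as an inhibitor-like protein and known in Arabidopsis as a regulator of the proteasome in auxin signalling, had 32.7, 31.4 and 27.8 TPM in SC and 1.32, 0 and 0.871 TPM in VN (log2 fold change 4.27 ± 0.37, limma adjusted p = 1.47e-05). In both genes every SC library lay above every VN library.

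UMP1B, for the assembly factor that is known in yeast to be enclosed in the maturing core, had 11.8, 13.6 and 6.69 TPM in SC and 24.99, 1.45 and 14.6 TPM in VN, with VN libraries on both sides of the SC range (limma adjusted p = 0.846). UMP1B lies wholly within AT5G38660 on the same strand, a gene with at most 1.43 TPM in any library. UMP1A had at most 0.436 TPM in any library. ECM29, for a protein that in yeast tethers the core to the regulatory particle, was listed at 0 in SC replicates 1 and 2, had 0.496 TPM in SC replicate 3 and 0.275, 0.903 and 0.574 TPM in VN.

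Genes of the COP9 signalosome, a complex built like the 19S lid that removes the ubiquitin-like protein RUB/NEDD8 from cullins, were mostly higher in SC where they could be tested. The word proteasome found 4 of its 10 genes, and over all 10 the test covered 6, of which 4 were higher in SC (CSN1, CSN2, CSN4 and CSN8) and CSN7 was higher in VN. Among all tested genes, 29.2% were higher in SC and 35.6% higher in VN. CSN4 had 177.2, 162.3 and 176.7 TPM in SC (172.1 ± 8.50, SD, n = 3) and 18.9, 28.2 and 8.04 TPM in VN (18.4 ± 10.11), and its log2 fold change was 3.31 ± 0.40 (limma adjusted p = 1.15e-04). CSN8 had 78.7, 59.3 and 53.4 TPM in SC and 0.111, 0 and 0 TPM in VN (limma adjusted p = 5.68e-07). Both belong to the subunits with a PCI domain, and each kept its call under every alternative.

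CSN2 had 8.42, 8.43 and 7.43 TPM in SC, and in VN was above 0 in replicate 1 only, at 0.0526 TPM (limma adjusted p = 1.92e-05). CSN1 had 12.9, 24.7 and 20.8 TPM in SC and was listed at 0 in every VN library (limma adjusted p = 7.85e-06). CSN7 went against them, with 0.825, 1.38 and 0.786 TPM in SC and 6.32, 5.13 and 6.67 TPM in VN (log2 fold change -1.82 ± 0.30, limma adjusted p = 6.74e-04). The catalytic subunit was weakly represented, since CSN5A had 4.62, 0.733 and 0.627 TPM in SC and at most 0.512 TPM in VN, and CSN5B was listed at 0 in all but VN replicate 3.

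**Figure D4:**
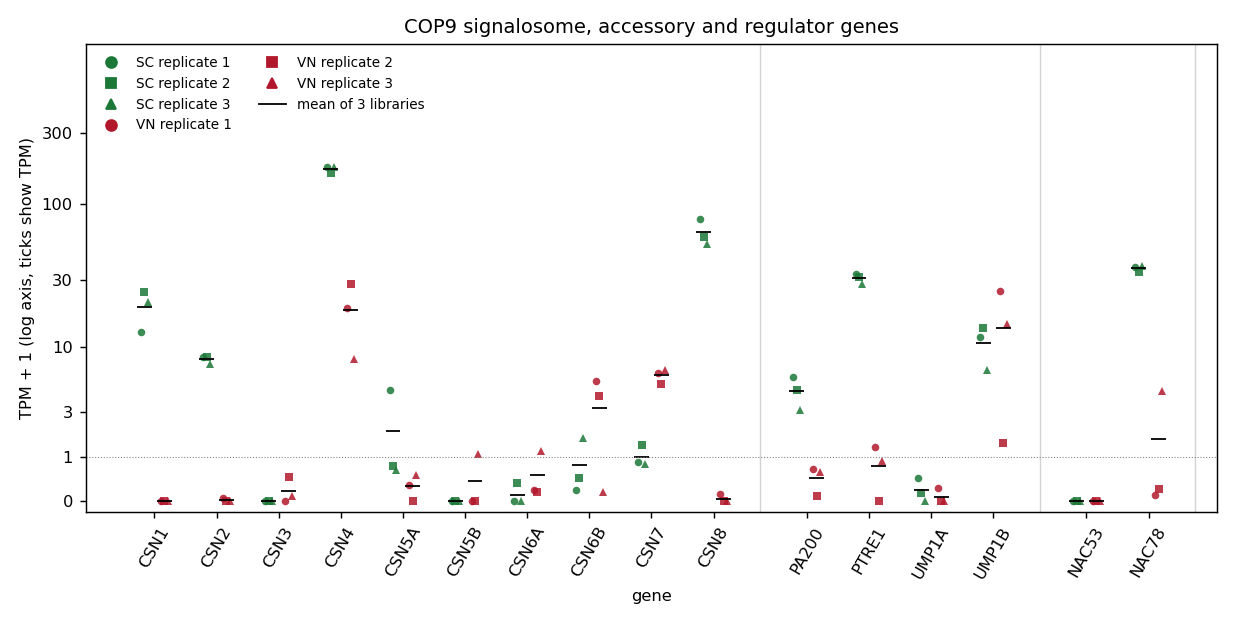
TPM of COP9 signalosome genes, of PA200, PTRE1, UMP1A and UMP1B, and of NAC53 and NAC78 in each library (SC green, VN red), on a log axis of TPM + 1 with a bar for the mean of 3 libraries. CSN4 lies at 162.3 to 177.2 TPM in SC and 8.04 to 28.2 TPM in VN, and CSN7 lies at 5.13 TPM or more in VN and at 1.38 TPM or less in SC.

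The 9 remaining genes found by the word were named for a domain shared with lid subunits or had no assigned subunit. EER5 (AT2G19560), which acts in ethylene responses in Arabidopsis, had 42.2, 58.4 and 35.3 TPM in SC and 2.20, 0.142 and 0.262 TPM in VN, the largest rise of the 45 genes (log2 fold change 4.77 ± 0.44, limma adjusted p = 2.39e-05). AT5G15610, described as a PCI domain protein, had 4.58, 4.52 and 0.364 TPM in SC and 41.7, 48.9 and 22.5 TPM in VN (log2 fold change -3.41 ± 0.59, limma adjusted p = 8.90e-04). Neither pair of groups overlapped. AT1G48530, an inhibitor-like gene, had 6.69, 10.4 and 3.71 TPM in SC and 1.08, 0 and 2.55 TPM in VN and was not called (limma adjusted p = 0.0109), just short of the threshold. The other 6 included 2 that were listed at 0 in every library.

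Of the 14 subunit genes called, 8 kept the call under every alternative (PAB2, PAF1, PBE2, RPT1B, RPT3, RPT6B, RPN1A and DSS1I) and 6 lost it under at least 1, and 0 changed sign. Of the 12 called among the 45 genes, 10 kept it under every alternative, the exceptions being RPT5B and RPN2B.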

How the data were processed

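RNA of sorted SC and VN was made into libraries with Smart-seq2 and sequenced by the authors in paired reads of 150 bases. Trim Galore and Salmon are named in the submitters' processing notes with the TAIR10 genome, and the paper's methods add mapping with Hisat2 and assembly with StringTie. The authors deposited 1 table of TPM values per gene for the 6 libraries, each summing to 1000000, and the summing of transcripts into genes is not given in the sources used here. No counts or depth per library can be read from TPM, so counting error is not given, and strand use in counting is not stated.

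Genes with at least 1 TPM in at least 2 of 6 libraries were tested on log2(TPM + 1) with limma 3.58.1 in R 4.3.3 (linear model, empirical Bayes, trend, two-sided) with Benjamini-Hochberg adjustment over 10955 genes. Genes were called at adjusted p under 0.01 and log2 fold change over 1 in size. Alternatives were a pseudocount of 0.1, no filter, a filter on 3 libraries, quantile normalization, median centring, a replicate block, no trend and leaving out each library. Removing the 10 most abundant genes of each library was added after seeing the data. The procedure was tested on simulated data. No label ties a replicate to a sorting batch, so no value within a batch was computed.

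The genes, subunit lists and marker lists were chosen with earlier results of these data known. Values in every library were given for pairs with a called gene, called single-copy subunits, the 5 largest rises and falls among the 45 genes, and activator, assembly and inhibitor genes. For some low paralogues only the highest value, or the share held by the other gene, was given. Other lists were counted and named where called, and PAD, PBF1, RPN6, RPN11, RPN13, NAC53, CSN5A, CSN5B and AT1G48530 were added after their values were seen. Gene positions, identities and upstream sequences came from RefSeq TAIR10.1 with Python 3.11.15 and Biopython 1.88, and tables and plots were made with numpy 2.4.6, pandas 2.3.3 and matplotlib 3.10.9.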

Additional observations from a re-analysis of the deposited data

How the results depend on the processing

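The depth of the single libraries is not given in the sources used here. VN replicate 2 had the fewest genes above 0. Leaving it out raised the counts higher in VN among the 45 genes, in the core and in the 19S particle. Leaving out SC replicate 2 or SC replicate 3 lowered these counts. Within the 19S base, the count of non-ATPase genes higher in VN fell from 1 to 0 without VN replicate 2. Of the counts of called genes, the core genes higher in VN fell from 2 to 1 with a pseudocount of 0.1, no filter, median centring or the 10 most abundant genes removed, and the 19S genes higher in SC fell from 4 to 2 with no filter. In the 19S particle, quantile normalization, median centring and that removal gave 6, 6 and 5 genes higher in SC and 5, 4 and 4 in VN. Leaving out each library gave 7 to 9 higher in SC and 3 to 7 higher in VN among the 45 genes, 2 and 1 to 5 in the core, and 3 to 5 and 3 to 9 in the 19S particle. The cause of these changes was not tested. The sign of the log2 fold change turned for PAD2 under quantile normalization (0.16), median centring (0.17) and removal of the most abundant genes (0.21), for RPT5A under the same settings (0.31, 0.11 and 0.28) and for CDC48A under the removal (0.079), and these settings also moved the median of all genes from -0.55 to between -0.13 and 0.01. For UMP1B it turned without SC replicate 2 (-0.01) and without VN replicate 2 (-0.83), and leaving out each library gave -0.83 to 0.87. The difference in paralogue share, SC minus VN, turned without VN replicate 3, with a range over left-out libraries of -0.445 to 0.900 percentage points for RPN1A and -41.9 to 8.08 for RPN2A. None of these log2 fold changes was called, and the differences in share were not tested.

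Replicate numbers did not pair the libraries, since deviations of same-numbered libraries correlated at 0.0085, -0.035 and -0.019 across genes. With a replicate block the counts were 8 and 4 among the 45 genes, 2 and 2 in the core, and 3 and 5 in the 19S particle.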

Other observations

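Genes that bring ubiquitylated proteins to the proteasome or trim their chains were also split between the populations. Of 10 such genes, 8 were tested, with 3 higher in SC and 2 higher in VN. Over all tested genes the shares were 29.2% and 35.6%, and no test of this list was made. RAD23D, a shuttle factor that binds ubiquitin and the proteasome, had 117.2, 101.3 and 129.1 TPM in SC and 2.95, 7.56 and 4.88 TPM in VN (log2 fold change 4.32 ± 0.32, limma adjusted p = 6.22e-06). UBP6, a deubiquitinase that docks on the base, had 83.7, 83.5 and 80.0 TPM in SC and 0.0683, 8.22 and 3.10 TPM in VN (log2 fold change 4.60 ± 0.69, limma adjusted p = 3.81e-04). DDI1 had 6.90, 7.31 and 7.14 TPM in SC and was listed at 0 in VN (limma adjusted p = 2.40e-05), and it overlaps a gene on the opposite strand. These genes lay above in every SC library.

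The shuttle factors DSK2A and DSK2B, neighbouring genes on chromosome 2, went the other way. DSK2A had 8.90, 4.28 and 2.90 TPM in SC and 33.2, 34.1 and 23.0 TPM in VN (log2 fold change -2.38 ± 0.39, limma adjusted p = 6.24e-04), and the log2 fold change of DSK2B was -2.19 ± 0.37 (limma adjusted p = 7.53e-04). CDC48A, an ATPase that extracts ubiquitylated proteins, had 14.5 to 20.5 TPM in SC and 19.6 to 32.1 TPM in VN, which was not called (log2 fold change -0.59 ± 0.28, limma adjusted p = 0.0842).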
